A study of Mus musculus with 6 samples.

Results

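The extracellular matrix genes described here are 45 genes of mouse liver for collagens, the enzymes that crosslink them, elastic fibres, adhesive glycoproteins, proteoglycans, metalloproteinases and their inhibitors, the growth factors that drive matrix deposition, and the mesenchymal cells that carry it out. Each gene was found on the array through the accession of its probes, and 42 of the 45 had a named probe, out of 18342 genes with a named probe. Col6a3, Col12a1 and Lox were not analysed here, and Ctgf was measured under its current symbol Ccn2. All 42 passed the filter for testing, a signal well above background on at least 2 of the 6 arrays, so none was lost to low signal.

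RNA from 6 liver or tumour samples was hybridised to 6 single-colour Agilent arrays, with 1 array for each combination of 2 genotypes and 3 drug regimens. Fah mice carry the Fah_del_tm1Mgo allele and cannot complete tyrosine breakdown. FCR mice carry the same Fah allele together with Rag2_del_tm1Fwa and the common gamma chain del tm1Wjl allele, and such mice lack T, B and natural killer cells while keeping myeloid cells. Both strains are on the BL6 background, so a deleted Fah gene is common to every sample. The drug NTBC, which blocks an earlier step of tyrosine breakdown, was given in drinking water at a full dose of 7.5 μg/ml. On continuous NTBC the labels call the Fah liver healthy and the FCR liver normal. After NTBC withdrawal, in a regimen named off and another named 2xoff/on, the labels call both Fah samples tumor and both FCR samples inflamed liver. The protocol text describes 2 rounds of withdrawal for off and for 2xoff/on alike, and it does not settle how the phase at collection differed. Only Fah samples are labelled tumor, so genotype and tumour cannot be told apart within the withdrawal regimens. Nothing in the labels says that arrays of 1 group come from separate mice, their ages or whether animals were pooled, so p-values measure only the spread between these samples.

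Liver scarring rests on a division of labour among these genes. Growth factors of the TGF-beta family and Ccn2 act on hepatic stellate cells and portal fibroblasts. The activated myofibroblasts secrete fibrillar collagens, which lysyl oxidase-like enzymes crosslink into fibres that resist breakdown. Metalloproteinases cut the matrix and TIMP proteins inhibit them, so deposition and degradation often run side by side in a chronically injured liver. Basement membrane collagens and laminins form sheets under epithelia and vessels, while hepatocytes themselves make the plasma form of fibronectin and much of the collagen XVIII of the liver.

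Levels are on a log2 scale on which 0 is the signal that 75% of that array's spots do not exceed. Between 60.5% and 74.5% of the spots of an array lay well above background. The processed signal at the 75th percentile was 363 in Fah and 374 in FCR on continuous NTBC, 811 and 363 in off, and 890 and 722 in 2xoff/on. Every withdrawal array other than FCR off was thus brighter than both continuous arrays. All 8 hepatocyte markers were well above background on each of the 6 arrays. Il2rg, the gene for the common gamma chain, gave signal above that bar on each of the Fah arrays and on no FCR array, Fah did so on all 6 arrays and Rag2 on none; where the Fah and Rag2 probes lie relative to the deleted parts was not tested. The 4 continuous and off arrays share 1 slide and both 2xoff/on arrays share another, so slide cannot be told apart from the 2xoff/on regimen. In a principal component analysis of all genes the FCR off array stood apart on the second component, at 104 against -53.0 to 7.96 for the other 5 arrays. The comparisons below use the same 6 arrays, or 4 of them, and are not independent of each other. In bulk liver RNA, more cells of a type and more RNA per cell cannot be told apart.

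Taken over both genotypes together, RNA of many matrix genes was higher after NTBC withdrawal. Of the 42 genes, 23 rose between continuous NTBC and the 2 withdrawal regimens and 1 fell, at an adjusted p under 0.05 in limma across all genes, with genotype in the model. The same call was made for 13.9% of all 15382 genes tested in the higher direction and 8.22% in the lower direction. The median log2 difference of the 42 genes was 1.60, against -0.02 for all genes tested, and 38 differences were above 0, as were 49.2% of all genes. For 23 of the 42, all 4 withdrawal arrays lay above both continuous arrays, as did 20.1% of all genes. Fah off was the array with the highest level for 28 of the 42 genes, against 10.9% of all genes tested, and the lowest level fell on 1 of the 2 continuous arrays for 29 of them (13 Fah and 16 FCR, against 18.5% and 11.9% of all genes). Levels and array patterns below are those of the brightest probe of a gene unless another is named.

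**Figure D1:**
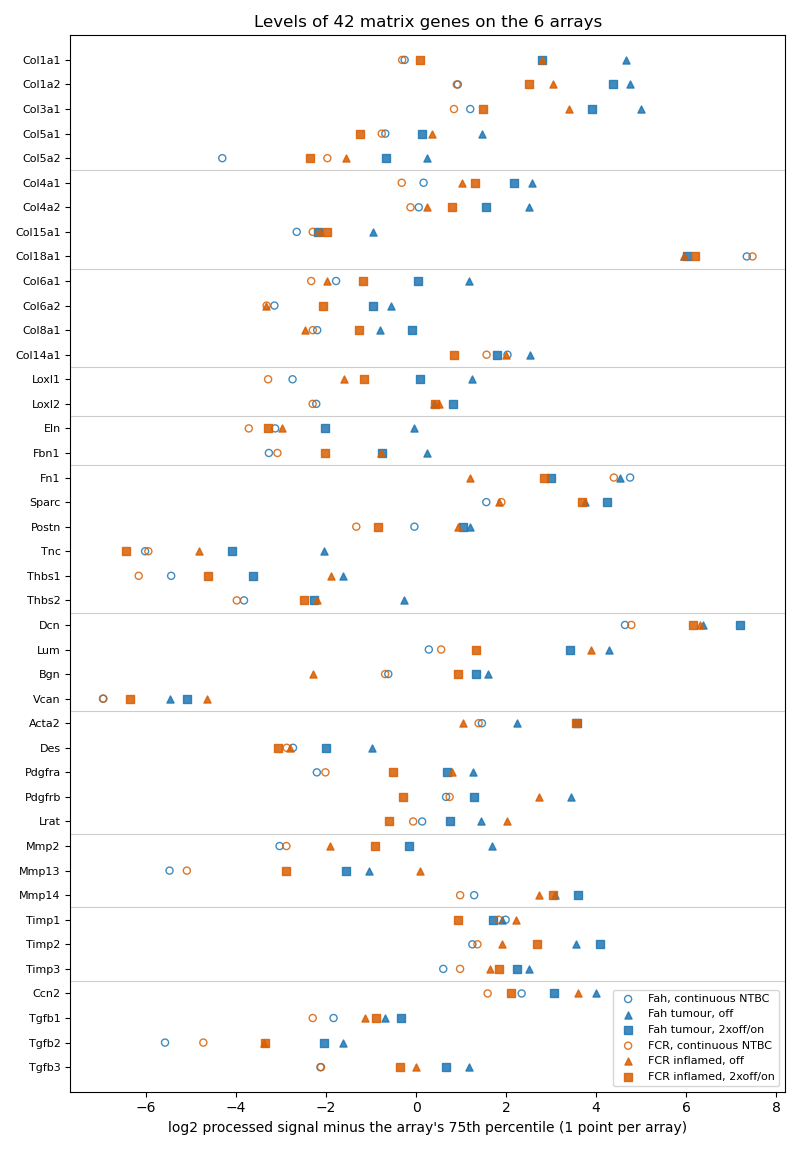
Level of each of the 42 matrix genes (rows, grouped by role with grey lines between groups) on each of the 6 arrays, on the log2 scale where 0 is the 75th percentile of that array. Blue marks Fah and orange FCR, open circles continuous NTBC, triangles off and squares 2xoff/on, and for Col1a1 the Fah off array lies at 4.65 and both continuous arrays lie at or below -0.25.

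Fibrillar collagens, the main load-bearing fibres of scar tissue, were led by the 2 chains of collagen I. Col1a1, its alpha 1 chain, had levels of -0.25 in Fah and -0.31 in FCR on continuous NTBC, 4.65 and 2.79 in the off regimen, and 2.80 and 0.08 in 2xoff/on. Thus on this probe the FCR 2xoff/on liver lay only slightly above the continuous arrays, and the other 3 withdrawal arrays stood well clear of them. Its difference over both genotypes was 2.86 ± 0.50 on the log2 scale (SE; 7.27-fold; adjusted p = 0.00644 in limma). On the second Col1a1 probe, well above background on all 6 arrays, FCR off (-2.89) and FCR 2xoff/on (-2.92) lay between FCR continuous (-4.07) and Fah continuous (-2.77). Col1a2, the alpha 2 chain, had levels of 0.93 in Fah and 0.90 in FCR on continuous NTBC, 4.76 and 3.04 in off, and 4.37 and 2.50 in 2xoff/on, a difference of 2.75 ± 0.42 (adjusted p = 0.00383). All 4 withdrawal arrays of Col1a2 were above both continuous arrays, with the Fah pair on top. Col3a1, the chain of collagen III that assembles early in repair, had levels of 1.20 and 0.84 on continuous NTBC, 4.99 and 3.41 in off, and 3.90 and 1.48 in 2xoff/on (difference 2.42 ± 0.43, adjusted p = 0.00645).

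The collagen V chains, which set fibril diameter, did not pass in this fit. Col5a2 had levels of -4.31 in Fah and -1.97 in FCR on continuous NTBC, 0.25 and -1.57 in off, and -0.68 and -2.37 in 2xoff/on. Its Fah arrays therefore spread over more than its FCR arrays, which overlapped between regimens, and the difference was 2.05 ± 0.80 (adjusted p = 0.104). Col5a1 showed 0.90 ± 0.37 (adjusted p = 0.118).

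Among the basement membrane collagens, Col4a1 rose and Col18a1 fell. Col4a1, an alpha chain of the collagen IV network, had levels of 0.17 in Fah and -0.32 in FCR on continuous NTBC, 2.57 and 1.02 in off, and 2.18 and 1.30 in 2xoff/on, with no overlap between continuous NTBC and withdrawal (difference 1.84 ± 0.33, adjusted p = 0.00693). On its second probe FCR off was at the continuous level, with -0.48 on both FCR arrays, and the difference was 1.19 ± 0.47 (adjusted p = 0.117 over all named probes). Its partner Col4a2 had levels of 0.06 and -0.12, then 2.51 and 0.24 in off, and 1.56 and 0.79 in 2xoff/on. The FCR off array was close to the continuous arrays, and the difference of 1.31 ± 0.44 did not pass (adjusted p = 0.0665). Col18a1, whose C-terminal fragment is endostatin, had levels of 7.35 and 7.48 on continuous NTBC, 5.94 and 5.94 in off, and 6.02 and 6.20 in 2xoff/on. Both genotypes thus lay together and the 4 withdrawal arrays lay below both continuous arrays, with a fall by 1.39 ± 0.36 on the log2 scale (adjusted p = 0.0281). The fall shrank to -0.79 with quantile normalization (adjusted p = 0.0915) and to -0.83 with the authors' deposited values (adjusted p = 0.0925), and over all alternatives the adjusted p ran from 0.0144 to 0.215, the highest without the Fah continuous array. Hepatocyte markers moved with it: 4 of 8 fell (Cyp2e1, Tat, Cyp3a11 and Hnf4a), none rose, and their summed signal was 2003 to 2378 times the array's 75th percentile on continuous NTBC and 720 to 1195 times after withdrawal. The part of this in the fall of Col18a1 was not tested. Col15a1 showed 0.66 ± 0.43 (adjusted p = 0.312).

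The 4 measured members among the other collagens did not pass. Col6a1, a chain of the beaded filaments that surround cells, had levels of -1.78 in Fah and -2.33 in FCR on continuous NTBC, 1.18 and -1.99 in off, and 0.05 and -1.18 in 2xoff/on (difference 1.57 ± 0.52, adjusted p = 0.0664). In FCR the off array lay near its continuous level and the 2xoff/on array 1.15 above it, and both Fah tumour arrays stood higher. Col6a2 and Col8a1 showed 1.50 ± 0.54 and 1.09 ± 0.41, and Col14a1 -0.01 ± 0.29.

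Both measured crosslinking enzymes rose. Loxl2, a lysyl oxidase-like enzyme that oxidises lysines of collagen, had levels of -2.22 in Fah and -2.30 in FCR on continuous NTBC, 0.40 and 0.50 in off, and 0.82 and 0.41 in 2xoff/on. On this probe the 4 withdrawal arrays lay within less than 1 log2 unit of each other, whatever the genotype. The difference was 2.79 ± 0.32 (6.94-fold, adjusted p = 0.0013). On the second Loxl2 probe, well above background on the 4 withdrawal arrays alone, off (-2.62 in Fah and -2.99 in FCR) lay below 2xoff/on (-0.98 and -1.36). Loxl1, the family member tied to elastic fibres, had levels of -2.75 and -3.29 on continuous NTBC, 1.25 and -1.60 in off, and 0.09 and -1.16 in 2xoff/on (difference 2.66 ± 0.49, adjusted p = 0.0077). Here the Fah tumour arrays stood above the FCR arrays. Of the elastic fibre proteins, fibrillin-1 (Fbn1), the microfibril backbone, had levels of -3.27 and -3.08, then 0.25 and -0.79 in off, and -0.77 and -2.02 in 2xoff/on, and rose by 2.34 ± 0.41 (adjusted p = 0.00651). Elastin (Eln) had levels of -3.13 in Fah and -3.72 in FCR on continuous NTBC, -0.05 and -2.98 in off, and -2.01 and -3.29 in 2xoff/on. Its FCR 2xoff/on array lay below the Fah continuous array, and the difference of 1.34 ± 0.52 did not pass (adjusted p = 0.101).

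Of the 6 adhesive and matricellular glycoproteins, which link cells to matrix or tune that contact, Thbs1, Thbs2 and Sparc rose. Thbs1, thrombospondin-1, an activator of latent TGF-beta, was not well above background on either continuous array. Its measured levels were -5.44 in Fah and -6.17 in FCR there, -1.63 and -1.90 in off, and -3.63 and -4.62 in 2xoff/on, so it was at least 5.16-fold higher after withdrawal (adjusted p = 0.00334). This bound sets the mean of the bright group against the lowest signal that counts as well above background on each dim array, or the probe's own signal where that is higher. Thbs2 had levels of -3.82 and -3.99 on continuous NTBC, -0.27 and -2.19 in off, and -2.27 and -2.49 in 2xoff/on, and Fah off stood alone at the top (difference 2.10 ± 0.47, adjusted p = 0.0175). Sparc, a collagen-binding protein, had levels of 1.56 and 1.90, then 3.76 and 1.83 in off, and 4.24 and 3.68 in 2xoff/on. The FCR off array lay between the 2 continuous arrays, while the other 3 lay above both (difference 1.65 ± 0.45, adjusted p = 0.0341), an array pattern that its second probe did not share.

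Tenascin-C (Tnc), a glycoprotein of wounds and tumour stroma, was well above background on 3 arrays. Its measured levels were -6.02 in Fah and -5.95 in FCR on continuous NTBC, -2.05 and -4.83 in off, and -4.08 and -6.44 in 2xoff/on, with FCR 2xoff/on the lowest of all 6 and also not well above background (adjusted p = 0.11). Fibronectin (Fn1) had levels of 4.76 and 4.39 on continuous NTBC, 4.54 and 1.19 in off, and 2.99 and 2.84 in 2xoff/on. The FCR off array was far below the rest, and the difference of -1.68 ± 0.62 did not pass (adjusted p = 0.0884). Periostin (Postn) just missed the threshold at 1.27 ± 0.39 (adjusted p = 0.0514).

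Small leucine-rich proteoglycans bind collagen fibrils and space them. Lumican (Lum) had levels of 0.28 in Fah and 0.56 in FCR on continuous NTBC, 4.29 and 3.89 in off, and 3.41 and 1.34 in 2xoff/on, a rise of 2.81 ± 0.47 (7.03-fold, adjusted p = 0.00521). Decorin (Dcn) had levels of 4.64 and 4.78, then 6.37 and 6.30 in off, and 7.19 and 6.15 in 2xoff/on, a rise of 1.79 ± 0.39 (adjusted p = 0.0149). Neither overlapped between continuous NTBC and withdrawal, and in the off regimen the genotypes lay close together for both. Biglycan (Bgn) behaved otherwise, with levels of -0.62 in Fah and -0.69 in FCR on continuous NTBC, 1.60 and -2.30 in off, and 1.33 and 0.92 in 2xoff/on. Its FCR off array was the lowest of the 6, and the difference of 1.04 ± 0.71 did not pass (adjusted p = 0.333). Versican (Vcan) was well above background on 3 arrays and on neither continuous one, so no fold is given. Its fitted adjusted p was 0.0966, and the sign of the fitted difference turned with normexp background correction.

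Among the mesenchymal cell genes, Pdgfra, the PDGF receptor alpha, had levels of -2.21 in Fah and -2.02 in FCR on continuous NTBC, 1.27 and 0.80 in off, and 0.68 and -0.51 in 2xoff/on, and rose by 2.67 ± 0.37 (6.37-fold, adjusted p = 0.00263). Pdgfrb, the receptor that marks activated stellate cells, had levels of 0.67 and 0.74, then 3.45 and 2.73 in off, and 1.28 and -0.29 in 2xoff/on, so its 2xoff/on arrays lay on both sides of the continuous level (difference 1.09 ± 0.38, adjusted p = 0.0767). Acta2, the smooth muscle actin of myofibroblasts, had levels of 1.46 and 1.39, then 2.24 and 1.03 in off, and 3.58 and 3.55 in 2xoff/on, and rose by 1.18 ± 0.35 (adjusted p = 0.0459). On this probe the 2xoff/on arrays were the highest and the FCR off array lay below both continuous arrays. The other Acta2 probes, given with the probes below, did not share that order. Over the alternatives the adjusted p ran from 0.0101 with normexp to 0.462 without the Fah continuous array. Desmin (Des), an intermediate filament protein, had levels of -2.74 and -2.88, then -0.97 and -2.81 in off, and -2.00 and -3.06 in 2xoff/on, with the 2 Fah tumours the highest arrays (difference 0.60 ± 0.44, adjusted p = 0.375). Lrat, the enzyme that stores retinol esters in stellate cells, showed 0.87 ± 0.42 (adjusted p = 0.175).

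All 3 metalloproteinases rose. Mmp13, the main interstitial collagenase of rodents, had levels of -5.48 in Fah and -5.10 in FCR on continuous NTBC, -1.06 and 0.09 in off, and -1.57 and -2.90 in 2xoff/on, and the Fah continuous signal was not well above background. The fitted difference was 3.93 ± 0.53 (adjusted p = 0.00242), with 1 of the 2 continuous arrays measured above background, and the off regimen of FCR was the highest array. Mmp14, the membrane-anchored proteinase that activates pro-MMP2, had levels of 1.29 and 0.98, then 3.08 and 2.74 in off, and 3.59 and 3.04 in 2xoff/on (difference 1.98 ± 0.29, adjusted p = 0.00307). Mmp2, a gelatinase, had levels of -3.03 and -2.88, then 1.68 and -1.91 in off, and -0.16 and -0.91 in 2xoff/on (difference 2.63 ± 0.68, adjusted p = 0.028). For Mmp2 the Fah off tumour stood far above the FCR off liver. On the brightest Mmp14 probe the 2 genotypes lay close together, and on its second probe they did not in off.

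Among the inhibitors, Timp2 had levels of 1.25 in Fah and 1.36 in FCR on continuous NTBC, 3.55 and 1.91 in off, and 4.08 and 2.68 in 2xoff/on, and rose by 1.75 ± 0.41 (adjusted p = 0.0192). Timp3, which stays bound to the matrix, had levels of 0.60 and 0.98, then 2.52 and 1.65 in off, and 2.24 and 1.85 in 2xoff/on, and rose by 1.27 ± 0.34 (adjusted p = 0.0326). For both genes every withdrawal array was above every continuous array. The Timp1 result depended on the probe and is given with the other probes below.

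All 4 growth factors rose. Tgfb1 had levels of -1.84 in Fah and -2.30 in FCR on continuous NTBC, -0.68 and -1.13 in off, and -0.34 and -0.89 in 2xoff/on (difference 1.31 ± 0.33, adjusted p = 0.0252). Tgfb2 had levels of -5.58 and -4.73, then -1.63 and -3.37 in off, and -2.05 and -3.36 in 2xoff/on, and its Fah continuous signal was not well above background (difference 2.55 ± 0.58, adjusted p = 0.0176). Tgfb3 had levels of -2.13 and -2.11, then 1.18 and -0.01 in off, and 0.66 and -0.35 in 2xoff/on (difference 2.49 ± 0.37, adjusted p = 0.00325). In all 3 TGF-beta ligands the withdrawal arrays lay above the continuous arrays without overlap. Ccn2, connective tissue growth factor, had levels of 2.35 and 1.59, then 4.0 and 3.60 in off, and 3.07 and 2.12 in 2xoff/on (difference 1.23 ± 0.30, adjusted p = 0.0223), and its FCR 2xoff/on array lay below the Fah continuous array.

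**Figure D2:**
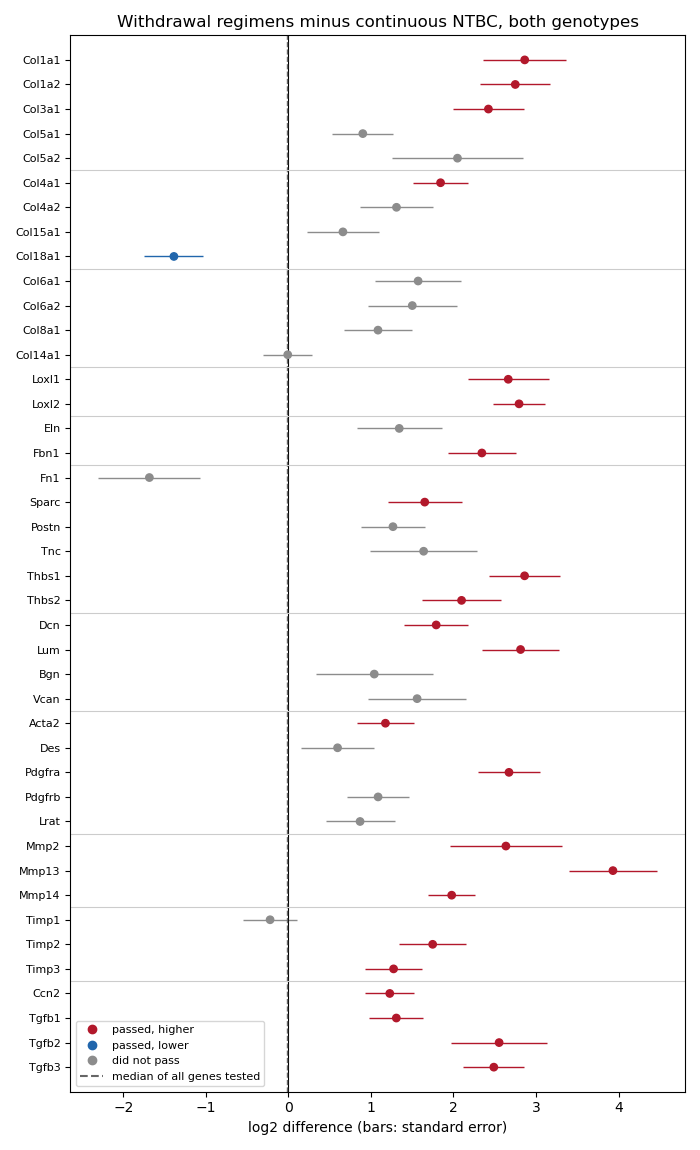
Log2 difference of the withdrawal regimens minus continuous NTBC for each matrix gene (rows, grouped by role), with standard errors as bars, from the limma fit over 6 arrays with genotype in the model. Red genes passed as higher, blue as lower and grey did not pass, and the dashed line is the median of all genes tested, at -0.02. Thbs1, Tnc and Vcan, not well above background on either continuous array, are drawn at their fitted values.

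The withdrawal count of 24 genes changed when single arrays were left out, and 2 continuous arrays stood for the control. Without the Fah continuous array the fit gives the response of FCR alone, with a median of 1.10 over the 42 genes. Without the FCR continuous array it gives that of Fah alone, with a median of 2.17. Of the 24, 9 (Col1a1, Col1a2, Loxl1, Loxl2, Lum, Mmp13, Mmp14, Pdgfra and Tgfb3) passed under every alternative run except a common floor on dim values, under which only Loxl2 and Mmp14 passed.

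Promoter sequence is shown for 4 of the genes that rose, as examples of the fibrillar collagens and the metalloproteinases that passed. RefSeq promoters of GRCm38.p6 were at hand for 29 of the 45 genes. The 250 bases before each start were searched on both strands for the TATA box spelled TATAAA, the CCAAT box spelled as its name, the GC box spelled GGGCGG, the AP-1 site spelled TGANTCA and the SMAD element spelled CAGACA. The matches are in capitals, a match on the other strand appearing as its reverse complement.
Mmp13, chr9:7272264-7272513, plus strand: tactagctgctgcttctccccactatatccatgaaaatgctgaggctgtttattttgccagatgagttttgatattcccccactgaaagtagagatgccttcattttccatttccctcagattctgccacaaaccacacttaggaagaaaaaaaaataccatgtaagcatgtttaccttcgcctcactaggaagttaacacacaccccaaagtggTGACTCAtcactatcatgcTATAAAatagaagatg
Mmp14, chr14:54431348-54431597, plus strand: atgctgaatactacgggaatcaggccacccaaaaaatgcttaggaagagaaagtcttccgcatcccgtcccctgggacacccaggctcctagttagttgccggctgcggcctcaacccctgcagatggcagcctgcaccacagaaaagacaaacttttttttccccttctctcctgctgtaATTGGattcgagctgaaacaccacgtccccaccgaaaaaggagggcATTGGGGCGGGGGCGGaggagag
Col1a2, chr6:4505368-4505617, plus strand: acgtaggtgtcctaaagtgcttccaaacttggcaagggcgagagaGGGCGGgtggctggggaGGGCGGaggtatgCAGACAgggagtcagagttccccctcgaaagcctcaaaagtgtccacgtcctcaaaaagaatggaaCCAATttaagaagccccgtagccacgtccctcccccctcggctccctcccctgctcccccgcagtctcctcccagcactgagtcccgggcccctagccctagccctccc
Col3a1, chr1:45311288-45311537, plus strand: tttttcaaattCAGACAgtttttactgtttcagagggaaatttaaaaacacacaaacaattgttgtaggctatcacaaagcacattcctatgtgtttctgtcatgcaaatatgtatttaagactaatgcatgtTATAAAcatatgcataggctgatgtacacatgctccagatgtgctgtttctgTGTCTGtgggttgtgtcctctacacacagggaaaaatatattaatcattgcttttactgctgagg
The Mmp13 window holds an AP-1 match 35 bases before the start, followed by a TATA box 16 bases before it. The Mmp14 window holds 2 CCAAT boxes and 2 GC boxes, with the CCAAT match nearer the start sharing a base with a GC box. Col1a2 has 2 GC boxes, a CCAAT box and a SMAD element, and Col3a1 a TATA box and 2 SMAD elements. Over the 29 promoters, a GC box was found in 17 (58.6%, against 32.9% of all 27025 promoters), a CCAAT box in 11 (37.9% against 34.5%), a SMAD element in 8 (27.6% against 17.1%), a TATA box in 5 (17.2% against 13.0%) and an AP-1 site in 2 (6.9% against 6.87%). These are matches of letters and no binding was measured.

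Within Fah mice, the 2 tumours were set against the single healthy liver. This asks how matrix RNA of samples labelled tumor differs from that of drug-protected liver. Of the 42 genes 8 rose and none fell, beside 3.93% of all genes called higher and 1.13% called lower, and 39 of the 42 differences were above 0, as were 46.8% of all genes. For 38 both tumours lay above the healthy liver, which also held for 35.8% of all genes. At an unadjusted p under 0.05, 26 were higher and 1 lower, against 12.5% and 6.05% of all genes. The 8 were Col1a2 (3.63 ± 0.59, adjusted p = 0.0133), Col5a2 (4.09 ± 0.75, adjusted p = 0.0199), Tgfb2 (at least 9.7-fold higher, adjusted p = 0.0259), Tgfb3, Loxl1, Loxl2, Mmp2 and Pdgfra, with the other 5 between 2.83 and 3.79 on the log2 scale. Col5a2 had not passed over both genotypes. Mmp13, not well above background in the healthy liver, was at least 14.0-fold higher without passing (adjusted p = 0.0732). The median of the 42 was 2.17, against -0.08 for all genes. The single healthy array was assumed to vary like the replicated groups. The count rose when either inflamed FCR array, which takes no part in the contrast, was left out. Without Fah off, 1 of the 2 tumours of the contrast, the median of the 42 was 1.98. With slide as a block 27 passed, on 1 residual degree of freedom. Calls over all genes rose in the same fits, from 778 to 2134 without FCR off, 2371 without FCR 2xoff/on and 2544 with the block.

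Within FCR mice, the 2 inflamed livers were set against the single normal liver. None of the 42 genes passed, in a comparison that called 1.55% of all genes higher and 0.202% lower, and 10 were higher and 2 lower at an unadjusted p under 0.05, against 9.41% and 4.54% of all genes. For 37 the difference was above 0, as for 51.6% of all genes, and for 27 both inflamed livers lay above the normal liver and for 2 below it, against 35.5% and 31.8%. Loxl2 came nearest (2.76 ± 0.62, adjusted p = 0.0705), followed by Mmp13 (3.69 ± 1.12) and Mmp14 (1.91 ± 0.58), both at an adjusted p of 0.165. Col1a2 followed at 1.86 ± 0.59 (adjusted p = 0.176). Fibronectin was lower, at -2.38 ± 0.85 (adjusted p = 0.24). The median of the 42 was 1.10 against 0.04 for all genes. Without FCR 2xoff/on 13 genes passed, as did 13 with slide as a block, when 12 rose, among them Lum (2.91, adjusted p = 0.000601) and Col1a1 (2.89, adjusted p = 0.000619), and Fn1 fell by 2.40 (adjusted p = 0.00818). Over all genes 270 were called in the 6-array fit, 1807 without FCR 2xoff/on and 1909 with the block.

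**Figure D3:**
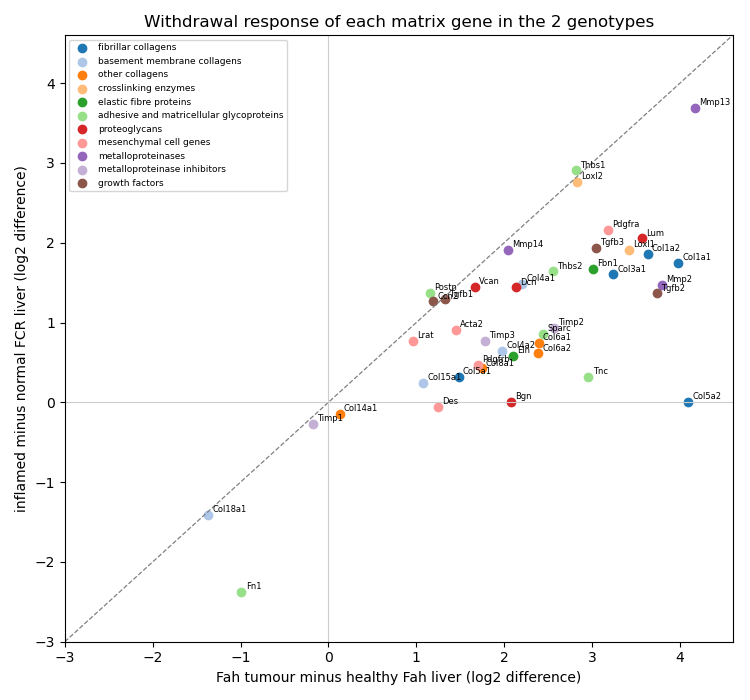
Log2 difference after withdrawal in Fah mice (horizontal, 2 tumours minus 1 healthy liver) against FCR mice (vertical, 2 inflamed livers minus 1 normal liver) for the 42 genes, coloured by role, with the dashed line marking equal differences. Loxl2, Thbs1 and Mmp14 lie near the line, while Col5a2 and Bgn lie far to its right with almost no mean difference in FCR. For Bgn that mean joins -1.61 in off and 1.61 in 2xoff/on. Genes not well above background in a control liver are drawn at their fitted values.

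Whether the withdrawal response itself differed between genotypes was tested as an interaction. No gene of the array passed (0% of all genes in either direction; limma), and 1 of the 42 was under an unadjusted p of 0.05, against 1.02% of all genes higher and 1.14% lower. That gene was Col5a2, whose response was larger in Fah by 4.09 ± 1.06 on the log2 scale (adjusted p = 1). Its level on continuous NTBC was -4.31 in Fah and -1.97 in FCR. The difference was above 0 for 39 of the 42 genes, with a median of 1.19 against -0.06 for all genes, of which 46.8% were above 0. With slide as a block Col5a2 passed (adjusted p = 0.00386) and no other gene of the 42 did. A response seen in one genotype and missing the threshold in the other was therefore not shown to differ, apart from that fit.

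The comparison of the tumours with the inflamed FCR livers asks how matrix RNA differs between tumour samples of Fah mice and inflamed liver of mice without lymphocytes. None of the 42 genes passed, in a fit that called 0.065% of all genes higher and 0.143% lower, but the direction was nearly uniform: 41 of 42 were higher in the tumours and the median was 1.18, against -0.13 for all genes. For 26 genes both tumour arrays lay above both inflamed arrays, as for 16% of all genes, and 18 were higher at an unadjusted p under 0.05, against 4.19% of all genes. Large differences were 2.29 ± 0.91 for Col1a1 (adjusted p = 0.488), 2.20 ± 0.61 for Col6a1 (adjusted p = 0.257), 2.17 ± 0.72 for Mmp2 (adjusted p = 0.367), 2.15 ± 0.91 for Bgn (adjusted p = 0.522) and 2.10 ± 0.73 for Eln (adjusted p = 0.391). Tnc, measured above background on 1 of the 2 inflamed arrays, had a fitted difference of 2.57 ± 0.92 (adjusted p = 0.408). Loxl2, Mmp13 and Col18a1 stood at the other end, with differences of 0.15, 0.09 and -0.09. The sign of the last 2 turned under other scalings.

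Each regimen holds 1 sample of each genotype on the same slide, so the difference can be read within slides. The off pair sets a brighter Fah array against a dimmer FCR array, as given above. In the off pair 37 of 42 genes were higher in Fah and 25 by more than 1 log2 unit, against 39.4% and 15.3% of all genes. In the 2xoff/on pair 40 were higher and 24 by more than 1, against 47.8% and 10.2% of all genes. On continuous NTBC 26 were higher and 1 by more than 1, against 43% and 3.01%, and the median difference was 0.08. Col1a1 differed by 0.06 on continuous NTBC, 1.86 in off and 2.72 in 2xoff/on, and Col3a1 by 0.36, 1.58 and 2.42. Col5a2 differed by -2.34 on continuous NTBC, the lowest of the 42, and by 1.82 and 1.69 after withdrawal. Biglycan differed by 3.89 in off and 0.41 in 2xoff/on, and Mmp2 by 3.59 and 0.75, so for these the off pair carried the difference. Mmp13 was lower in the Fah tumour in off (-1.15) and higher in 2xoff/on (1.33).

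**Figure D4:**
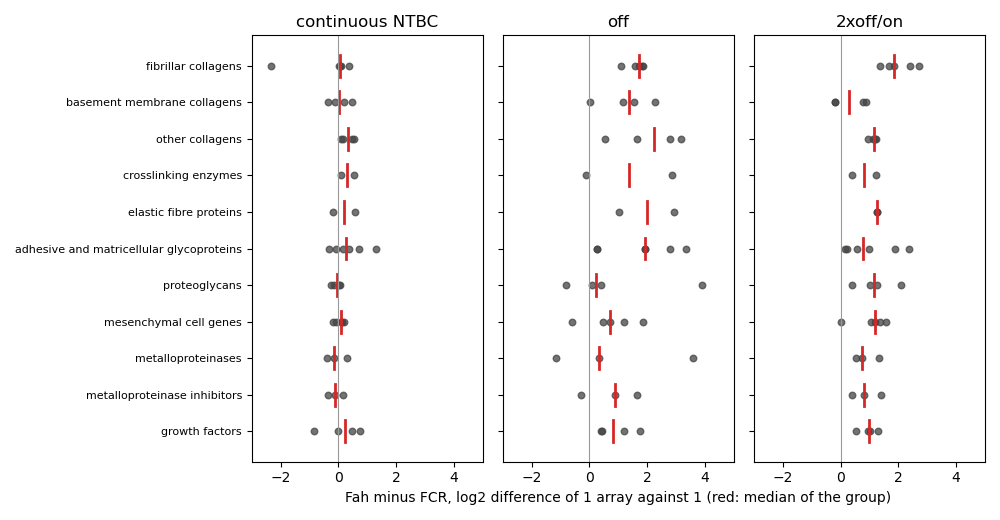
Fah minus FCR within each regimen, 1 array against 1, for the 42 genes (points) by role (rows), with the median of each role in red and the log2 difference on the horizontal axis. The points gather near 0 on continuous NTBC (median 0.08 over the 42) and lie mostly to the right in off (1.20) and 2xoff/on (1.09).

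With slide as a block the differences between tumours and inflamed livers kept their size and 12 of 42 genes passed, all higher in the tumours: Bgn, Col1a1, Col1a2, Col3a1, Col5a2, Col6a1, Col6a2, Eln, Fn1, Loxl1, Mmp2 and Tnc. Col1a1 had an adjusted p of 0.000588 there and Tnc 0.00243. That fit has 1 residual degree of freedom, leans on the spread that limma borrows across genes, and called 984 of all genes (524 higher), against 32 without the block. Without FCR 2xoff/on 6 genes passed, beside 799 of all genes, and without any other single array of these groups none did. Taken over all 3 regimens with regimen as a block, 22 of 42 genes were higher in Fah in every pair, as were 13.1% of all genes, and none passed, beside 0.13% of all genes called higher and 0.163% called lower. At an unadjusted p under 0.05, 17 were higher, against 4.86% of all genes. For 1 gene all 3 Fah arrays lay above all 3 FCR arrays and for none below, against 2.34% and 5.82% of all genes. Col3a1 came nearest (1.45 ± 0.40, adjusted p = 0.27), followed by Loxl1 (1.55 ± 0.46, adjusted p = 0.297). The median of the 42 was 0.73 in that fit. When either continuous array was left out, the fit compared the 4 withdrawal arrays alone, as the slide block above does, with a median of 1.18. Without either 2xoff/on array the median was 0.59, and without either off array 0.57.

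The series names a further contrast, the 2 Fah tumours against FCR_100% and FCR_2xoff/on together, which mixes a normal and an inflamed liver. No gene of the 42 passed and 0% of all genes did (limma, 4 arrays), while 26 of the 42 were higher at an unadjusted p under 0.05 against 7.72% of all genes. The leading genes were Col3a1 (3.28 ± 0.51), Lum (2.91 ± 0.49), Col1a1 (3.84 ± 0.67) and Postn (2.20 ± 0.42), each at an adjusted p of 0.296. When FCR 2xoff/on was left out, 27 passed, beside 2265 of all genes, which sets the tumours against the normal FCR liver alone. Without FCR_100% 1 passed.

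The 2 withdrawal regimens were also set against each other. Slide changes with regimen here and cannot be told apart from it. Over both genotypes 12 of 42 genes were higher in 2xoff/on than in off, as were 48.5% of all genes, and the median was -0.50 against -0.03 for all genes. At an unadjusted p under 0.05, 12 were lower and 1 higher, against 8.07% and 9.11% of all genes. Pdgfrb fell by 2.59 ± 0.44 (adjusted p = 0.0466), the only one of the 42 to pass, beside 0.104% of all genes called lower and 0.689% higher. The fall was 2.16 in Fah and 3.01 in FCR. Its adjusted p ran from 1.49e-05 without Fah 2xoff/on to 0.33 without FCR off, and was 0.0778 with quantile normalization and 0.0771 with the authors' deposited values. Thbs1 (-2.36 ± 0.49, adjusted p = 0.0778), Col1a1 (-2.28 ± 0.58, adjusted p = 0.121) and Ccn2 (-1.21 ± 0.34, adjusted p = 0.154) were lower without passing. For Thbs1 and Col1a1 this holds for the brightest probe. On both dimmer Thbs1 probes the 2xoff/on arrays lay above the off arrays. The second Col1a1 probe fell from 1.82 to -0.44 in Fah and was flat in FCR (-2.89 and -2.92). The third, well above background on 3 arrays, was higher in 2xoff/on in both genotypes. The direction for Acta2 depended on the probe too: the brightest gave 1.93 ± 0.40 (adjusted p = 0.0787) and the other 2 gave -0.73 ± 0.36 and -0.89 ± 0.54 (adjusted p = 0.30 and 0.398 over all named probes). Leaving out single arrays gave between 0 and 8 calls, with 0 without either off array or without FCR 2xoff/on, 8 without Fah 2xoff/on and 7 without either continuous array.

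Several genes have more than 1 probe, and these did not always move together. Of 21 genes with several tested probes, 6 had fitted withdrawal differences more than 1 log2 unit apart and 2 had probes of opposite sign, dim probes included. The brightest probe of Timp1, an inhibitor induced in most scarring livers, was flat, with levels of 1.99 in Fah and 1.84 in FCR on continuous NTBC, 1.91 and 2.21 in off, and 1.72 and 0.92 in 2xoff/on. The second Timp1 probe had levels of -5.82 and -6.31, then -1.55 and -2.68 in off, and -1.71 and -3.38 in 2xoff/on, and was well above background on the 4 withdrawal arrays alone. Tested on its own the second probe was at least 7.9-fold higher (adjusted p = 0.00238 over all named probes), against a log2 difference of -0.22 ± 0.34 for the first, so the array gives no single answer for Timp1. The 3 probes of Fn1 ranged from -1.86 to -0.11. The second Acta2 probe, well above background on all 6 arrays, had levels of -0.39 in Fah and -0.94 in FCR on continuous NTBC, 1.53 and 1.17 in off, and 1.07 and 0.17 in 2xoff/on, so that both off arrays were its highest. It rose by 1.65 ± 0.31 (adjusted p = 0.0115), and the third Acta2 probe was also highest in off. The second Sparc probe had levels of 1.22 and 2.60, then 3.42 and 4.04 in off, and 2.58 and 2.49 in 2xoff/on, with FCR off on top and the other FCR arrays alike (1.22 ± 0.37, adjusted p = 0.0561). The second Mmp14 probe had levels of -2.06 and -3.28, then -0.17 and -3.34 in off, and -0.21 and -0.82 in 2xoff/on, so FCR off stayed at the continuous level (1.54 ± 0.53, adjusted p = 0.0839). The second Lrat probe rose by 1.93 ± 0.37 (adjusted p = 0.0122), where the brightest gave 0.87. The dimmer probe of Col14a1 was well above background on 2 arrays, both of them 2xoff/on. With every probe tested on its own, 26 genes had a probe that passed in the withdrawal comparison.

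**Figure D5:**
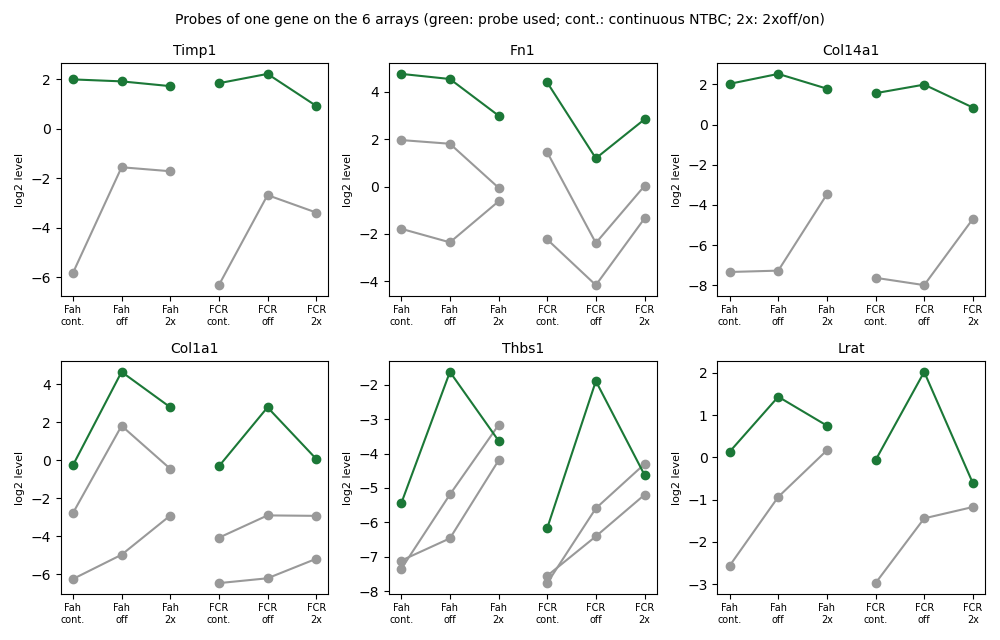
Log2 level of every named probe of 6 genes on the 6 arrays, with the probe used in green and the others in grey, joined within a genotype. The dimmer Timp1 probe climbs from -5.82 to -1.55 between continuous NTBC and off in Fah while the brightest stays between 0.92 and 2.21, and the dimmer probes of Thbs1, Lrat and Col14a1 peak on 2xoff/on arrays, which share a slide.

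Matrix genes beyond the 45 were followed in lists chosen by function. In the withdrawal comparison, where 13.9% of all genes rose and 8.22% fell, 14 of 22 further proteases and inhibitors rose and none fell, with a median of 1.98 on the log2 scale. They were led by Mmp7, matrilysin of injured epithelium (5.50 ± 0.45, adjusted p = 0.00045), Plat, tissue plasminogen activator (4.99 ± 0.38, adjusted p = 0.000338), and Plaur, the urokinase receptor (4.72 ± 0.50, adjusted p = 0.00105). Of 17 further glycoproteins 8 rose and 2 fell, Omd and Vtn, the latter a plasma protein of hepatocytes. Of 16 collagen folding and processing genes 4 rose (Plod2, Pcolce, Adamts2 and Crtap) and Bmp1, which trims procollagen, fell by 1.42 ± 0.35 (adjusted p = 0.0234). Of 13 laminins and related genes 3 rose, Nid1 and Lama5 among them, and Lama3 fell. Among 9 further collagens Col4a5 rose and Col27a1 and Col5a3 fell. Of 20 TGF-beta and PDGF signalling genes 6 rose, among them the receptor Tgfbr2 (2.42 ± 0.31, adjusted p = 0.00205), and 3 of 15 matrix receptors rose, led by the hyaluronan receptor Cd44 (3.68 ± 0.49, adjusted p = 0.00227), with Sdc4 falling. The collagen chaperone Serpinh1 fell between off and 2xoff/on by 2.74 ± 0.42 (adjusted p = 0.0312), with levels of 4.15 in Fah and 3.62 in FCR in off and 1.86 and 0.42 in 2xoff/on.

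Markers of the cells that could carry these genes are read against the same shares, 13.9% of all genes higher and 8.22% lower. Of 12 stellate cell markers 3 rose after withdrawal, Hgf and Cygb among them, and 1 fell, and of 8 portal fibroblast markers 5 rose, led by Cd34, Entpd2, Thy1 and Fbln2 (2 of the 5, Fbln2 among them, also stand in the glycoprotein list). The summed signal of the stellate markers was 55.5 and 62.5 times the 75th percentile on the continuous arrays and 70.4 to 119.6 times after withdrawal, and that of the portal fibroblast markers 3.13 and 3.71 against 7.16 to 20.1 times. In the Fah tumours against the inflamed FCR livers, the summed portal fibroblast signal was 20.1 and 16.3 against 10.2 and 7.16 and the stellate signal 79.5 and 110.0 against 119.6 and 70.4. The stellate sum is weighted to Ecm1, which had levels of 4.18 and 5.58 against 6.06 and 4.85. The median log2 level of the stellate markers was 1.09 and 1.63 against 1.49 and 1.08. No marker of either list passed in this comparison. Above 0 were 5 of 8 portal fibroblast markers (median 0.87) and 8 of 12 stellate markers (median 0.54), against 42.4% of all genes. Of 9 macrophage markers 5 rose, and their summed signal was 15.7 and 21.9 on continuous NTBC, 58.8 and 103 in the Fah tumours, 246.6 in FCR off and 28.4 in FCR 2xoff/on. A sum is weighted to its brightest gene, and Marco had the highest level of the list in FCR off, at 7.62. The median log2 level of the list was 2.64 and 2.80 in the Fah tumours, 2.80 in FCR off and 1.30 in FCR 2xoff/on. Of 6 cholangiocyte markers 3 rose (Epcam, Krt19 and Krt7), 2 of 5 smooth muscle markers, 1 of 4 mesothelial markers tested (Wt1) and none of 10 endothelial markers. The part of any of these in the matrix results was not tested.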

How the data were processed

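RNA of 6 liver or tumour samples was measured on 6 single-colour Agilent arrays. The scans were read by Feature Extraction 10.7.3.1 on a design annotated on mm9, per the file headers, while the submitters' processing notes name Agilent Feature Extraction 10.5. The deposited scanner files hold the processed intensity of each spot, background-subtracted by that software. A deposited value table by the authors holds log2 values of the same arrays, whose normalization and centring are not given in the sources used here; each array's log2 median there lies between 6.45 and 6.48, and they served as an alternative.

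Control spots and outlier spots were left out, spots of a probe were averaged, and log2 of the processed intensity minus the array's 75th percentile was analysed. Gene names came from probe accessions, stripped of versions and looked up in RefSeq's GRCm38.p6 table: of 41145 probes 26912 were named and 14233 were not. Each gene was represented by its probe with the highest mean. A gene entered a fit if its signal was well above background on 2 or more of that fit's arrays. Tests were two-sided moderated tests of limma 3.58.1 (R 4.3.3; trend in eBayes) with Benjamini-Hochberg adjustment over all genes tested and a threshold of 0.05. A fit of 4 group means over 6 arrays gave the contrasts between groups, and a fit of genotype plus regimen gave the contrasts over regimens, each with 2 residual degrees of freedom. The contrast of the series' own text used its 4 arrays. The scripts were tested on simulated data. The members, lists and tests were chosen with earlier results of these data known. Every gene that passed in any contrast was named with all 6 values, as was the gene of each role with the largest difference in tumour against inflamed liver and in withdrawal. Of each other list up to 4 genes that passed were named, by size of difference, and Bmp1, Sdc4 and the genes that fell for their direction. Marco and Ecm1 were named for their weight in a summed signal. A few genes of these lists are not reported here by name.

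The alternatives tried were normexp background correction (offset 50), quantile normalization, array median centring, the authors' values, the mean of a gene's probes, other filters, eBayes without a trend, slide or regimen as a block and each array left out. A common floor on dim values and tests of every probe were added after seeing the data. With 6 arrays the number of arrays limits the precision.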

Additional observations from a re-analysis of the deposited data

How the results depend on the processing

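Numbers of matrix genes that passed, of 42, are given here. For tumours against inflamed livers none passed, 12 passed with slide or regimen as a block, and 0 to 6 with single arrays left out. For Fah tumour against healthy liver 8 passed, 15 with normexp, 3 with quantile normalization, array median centring or no filter on dim probes, 2 with the authors' values, 0 with a common floor, 1 with every probe tested on its own, 27 with slide as a block, and 3 to 24 with single arrays left out. For inflamed against normal FCR liver none passed, 13 with slide as a block and 1 to 13 with single arrays left out. For the difference of the responses none passed and 1 with slide as a block. For Fah against FCR over 3 regimens none passed, 4 with normexp and 0 to 12 with single arrays left out. For withdrawal 24 passed, 2 with a common floor and 11 to 31 with single arrays left out, while the group means without the regimen block gave 18, 17 of them shared. For 2xoff/on against off 1 passed, 9 with normexp, 3 with array median centring, 2 with every probe tested on its own, 0 with quantile normalization, mean of probes, a common floor, the strict filter or eBayes without a trend, and 0 to 8 with single arrays left out. For the tumours against FCR_100% and FCR_2xoff/on none passed, and 0 to 27 with single arrays left out. The causes of these changes were not tested. By design, a fit with a block or an array fewer keeps 1 residual degree of freedom. Leaving out 1 continuous array also turns the withdrawal contrast into the response of the other genotype. It turns the contrast over 3 regimens into one of the 4 withdrawal arrays alone. The slide block also takes a difference between off and 2xoff/on that both genotypes share out of the spread. The labels give no replicate numbers that pair animals, so the paired reading is by regimen and slide: those blocks changed the calls as given above.

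Array median centring moved the median of all genes from -0.02 to -0.33 in withdrawal and from -0.08 to -0.46 in Fah tumour against healthy liver. It also changed the split of calls over all genes: 2138 of 3402 called genes were higher in withdrawal, 1805 of 4263 with array median centring and 1633 of 3121 with normexp, and for Fah tumour against healthy liver 604 of 778, 390 of 582 and 531 of 865. For inflamed against normal FCR liver 239 of 270 called genes were higher, and 303 of 437 with normexp. Among the 42 genes, no more than 5 changed sign under another scaling in any comparison other than the difference of the responses (10) and 2xoff/on against off (6), and no gene that had passed changed sign. Signal near background limits Tnc, Thbs1, Vcan, Mmp13 and Tgfb2, each below the well-above-background call on at least 1 array.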
